A study of Mus musculus with 2 samples.

Results

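The DNAJ genes encode J-domain proteins, the cochaperones that were first known as HSP40. They were described here in mouse embryonic stem (ES) cells in which Ago1, the gene of a small RNA-binding Argonaute protein, had been knocked out. The members were all protein-coding genes of the deposited count table whose GENCODE M21 symbol begins with Dnaja, Dnajb or Dnajc followed by a digit, which gave 45 of 21976 protein-coding genes and of 55421 gene identifiers in all. Polyadenylated RNA had been sequenced in 2 libraries, KO1 and KO2, from E14 ES cells of 129/Ola background carrying the Ago1 knockout, grown untreated in 15% serum with leukaemia inhibitory factor at 100 U/ml on gelatin. The labels do not name separate clones or cultures for the 2 libraries, so whether their spread is technical or biological is not known from them. Both libraries belong to 1 group and no control library was used here, so levels are described and no value is an effect of the knockout.

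J-domain proteins bring HSP70 chaperones to their work. The J domain makes HSP70 split ATP and close on its client, and the rest of the protein decides which client and where in the cell. Class A members have a J domain, a glycine- and phenylalanine-rich stretch and a zinc-finger region, class B members lack the zinc fingers, and class C members share only the J domain. Nucleotide exchange factors such as the BAG proteins then reopen HSP70. ES cells divide fast and are known for a high capacity to keep their proteins folded.

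KO1 held 57048330 counts in all and KO2 held 54408708. The targeted gene, Ago1, kept 1497 counts in KO1 against 452 in KO2, or 26.35 and 8.27 counts per 1000000 after scaling. The position of these reads within the gene is not known from the counts. The source of this gap between the libraries was not tested. All 8 ES cell markers listed were detected, with a summed level of 14347 transcripts per 1000000 (TPM) in KO1 and 13570 TPM in KO2. Most of this sum came from Dppa5a alone, at 9463 TPM in KO1 and 8285 TPM in KO2. Of 8 markers of fibroblasts, the usual feeder cells, Thy1 and Pdgfrb were the 2 detected. The fibroblast list summed to 26.9 TPM in KO1 and 30.9 TPM in KO2, and Postn and Lum had 0 counts in both libraries. TPM values are counts divided by exonic length and scaled to a sum of 1000000 in each library, and they are the scale used to compare genes. Counts per 1000000 (CPM) are not divided by length and decide detection, which means at least 1 CPM in both libraries.

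The family was broadly transcribed, with 40 of 45 members detected, beside 55.3% of all protein-coding genes. Class A had 4 of 4 members detected, class B 10 of 13 and class C 26 of 28. The median level of the 45 members was 19.1 TPM, against 2.39 TPM over all protein-coding genes. Among detected genes the medians were 22.7 TPM for the members and 20.1 TPM for all protein-coding genes, so the level of a detected DNAJ gene was near that of detected genes at large. The members summed to 2510 TPM in KO1 and 2204 TPM in KO2, a mean of 2357 ± 216 TPM (SD, n = 2). The family was uneven, since the 5 most abundant members held 49.7% of its summed TPM and the first 10 held 71.2%. When the members were ordered by mean TPM, 24 of 42 neighbouring pairs overlapped in their library values, so the order is to be read in steps and not rank by rank.

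**Figure D1:**
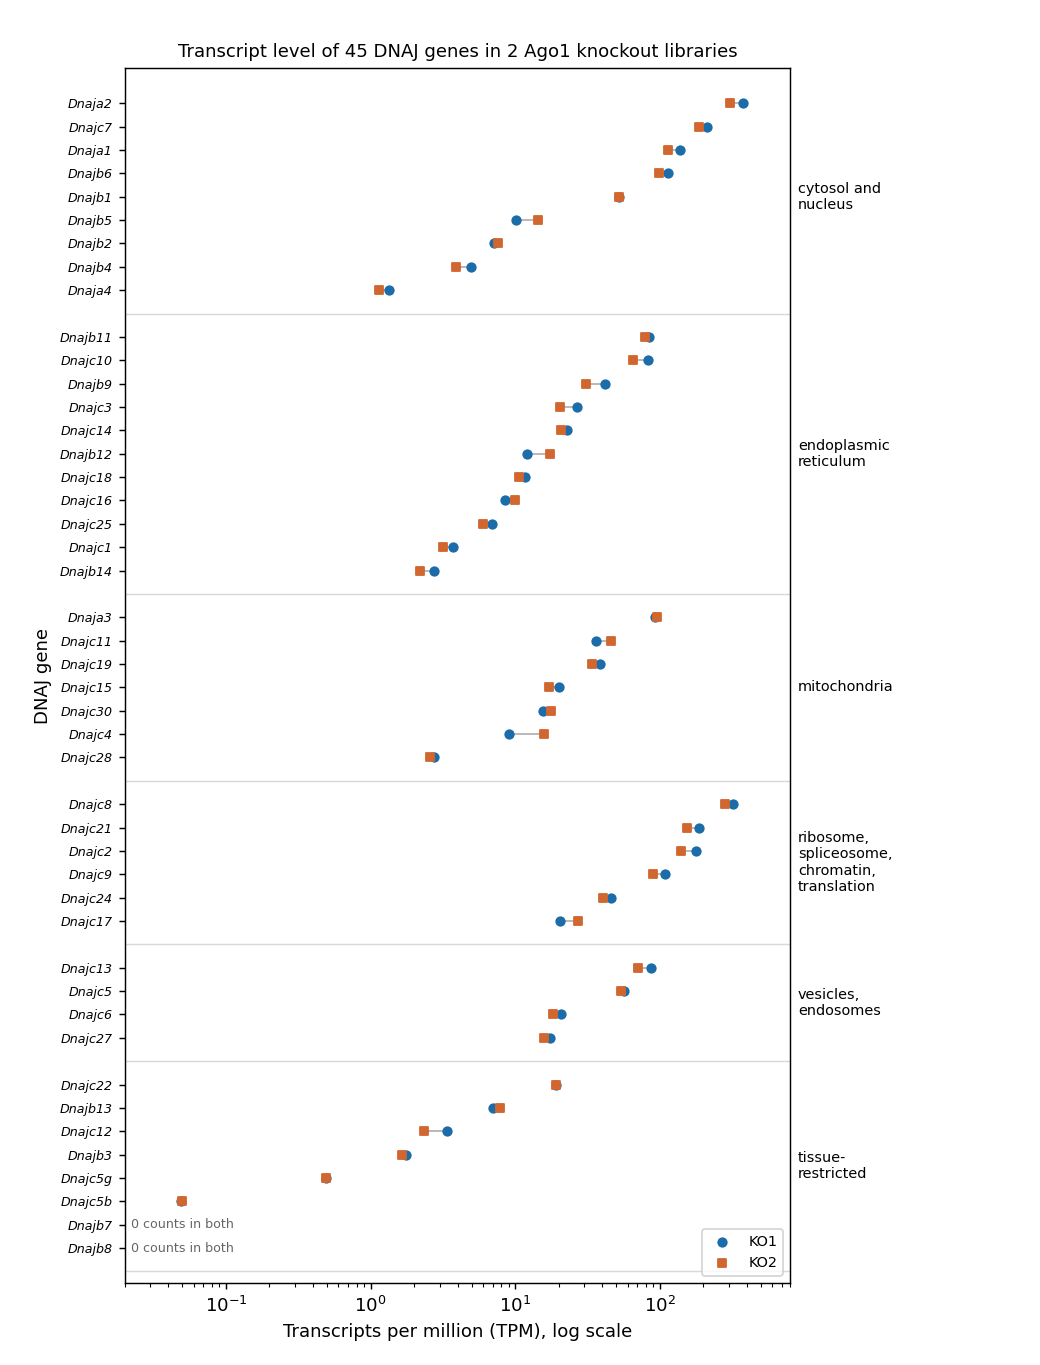
Level of each of the 45 DNAJ genes in TPM on a log axis, in library KO1 (circles) and KO2 (squares), grouped by compartment or role and ordered by the mean of the libraries. Dnaja2 and Dnajc8 lie furthest to the right at means of 341 and 302 TPM, and Dnajb7 and Dnajb8 had 0 counts in both libraries.

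General folding in the cytosol and nucleus is served by 9 members, and all were detected. Dnaja2, a class A partner of the constitutive HSP70 Hspa8, was the most abundant gene of the family, with 374 TPM in KO1 and 308 TPM in KO2 (341 ± 47.3 TPM, SD, n = 2). It alone held 14.5% of the family's TPM. With the length of the longest transcript in place of all exons, Dnajc8 at 315 TPM and Dnajc7 at 312 TPM stood above Dnaja2 at 261 TPM, so the first rank depends on the gene model. The gene (ENSMUSG00000031701) lies on the minus strand of chromosome 8 from 85537633 to 85555344 of GRCm38. Dnaja1, its class A relative, was at 138 TPM in KO1 and 115 TPM in KO2 (126 ± 16.2 TPM). The libraries of the pair did not overlap, and Dnaja2 was above Dnaja1 by a TPM ratio of 2.72 in KO1 and 2.68 in KO2. That ratio depends on the gene model, because the exons of all Dnaja1 transcripts add up to 8629 bases, whereas its longest transcript has 5622 bases. With longest transcripts the ratio was 1.81 and 1.78. In CPM, without length, Dnaja1 had slightly more reads than Dnaja2, at 316 ± 34.5 against 294 ± 35.2 CPM.

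Dnaja4, the remaining cytosolic class A gene, was low, at 79 counts in KO1 against 66 in KO2. Its level was 1.35 and 1.14 TPM, so Dnaja1 stood 102 times above it in KO1 and 100.3 times in KO2. Opposite-strand exons of Wdr61 cover 44.1% of the Dnaja4 exons, and with a strand setting not given in the sources used here, reads of both genes may not have been told apart. Class A transcripts of the cytosol were thus nearly all from Dnaja2 and Dnaja1.

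Among the cytosolic class B genes, Dnajb6, known for holding back the aggregation of polyglutamine proteins, led with 114 TPM in KO1 and 98.8 TPM in KO2. Dnajb1, the classical heat-inducible HSP40, was at 52.6 TPM in KO1 and 52.4 TPM in KO2, which is a spread of 0.163 TPM (SD, n = 2). Its close relatives were lower in both libraries, Dnajb5 at 10.1 and 14.5 TPM and Dnajb4 at 4.98 and 3.89 TPM. Dnajb1 exceeded Dnajb5 by a ratio of 5.20 in KO1 and 3.62 in KO2, and Dnajb4 by 10.6 and 13.5. Dnajb2, a ubiquitin-binding member best known from neurons, was at 7.08 and 7.63 TPM. The tetratricopeptide protein gene Dnajc7, whose product also binds HSP90, belongs to class C and was the second most abundant gene of this group at 212 TPM in KO1 and 186 TPM in KO2. With longest transcripts the mean of Dnajb6 was 166 TPM instead of 106 TPM and that of Dnajc7 312 TPM instead of 199 TPM.

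Members that work at the ribosome, on pre-mRNA, on histones or in translation were detected in 6 of 6 cases, with means from 23.9 TPM, near the 22.7 TPM median of detected members, up to 302 TPM. Dnajc8, found in spliceosomes, was second in the whole family at 323 TPM in KO1 and 281 TPM in KO2 (302 ± 29.4 TPM, SD, n = 2). It lies on the plus strand of chromosome 4 from 132535550 to 132553742. Dnajc21, which acts in the maturation of the large ribosomal subunit, was at 187 and 155 TPM, and Dnajc2, the ribosome-bound zuotin homologue, at 179 and 140.4 TPM. The values of Dnajc21 and Dnajc2 overlapped between libraries, so their order is not resolved. Dnajc9, a cochaperone that handles histones H3 and H4, followed at 109 and 89.6 TPM. Dnajc24, needed for the diphthamide modification of elongation factor 2, was at 46.3 and 40.4 TPM. Dnajc17, another spliceosome-associated member, was lowest at 20.5 and 27.3 TPM.

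**Figure D2:**
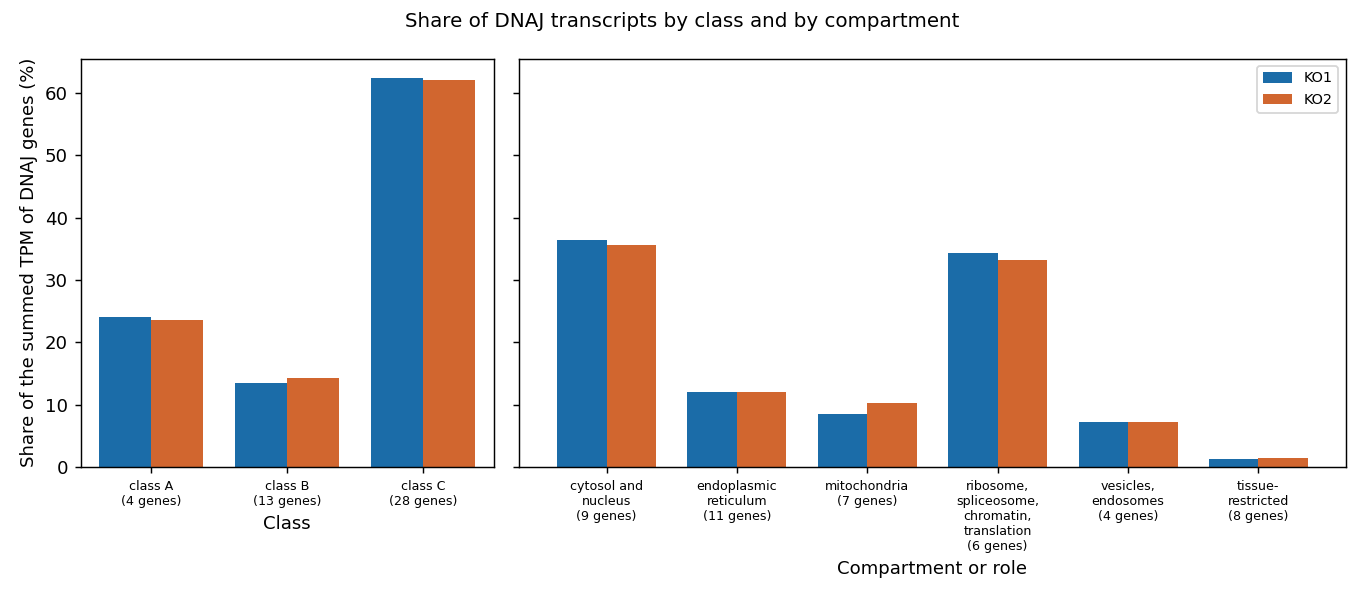
Share of the summed TPM of the 45 DNAJ genes held by each class (left) and by each compartment or role (right), in percent, with 1 bar per library. Class C held 62.4% in KO1 and 62.1% in KO2, and the cytosolic and the ribosome to translation groups each held between 33.3% and 36.4%.

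The 6 genes of that group held 33.8% ± 0.798 of the family's TPM (SD, n = 2), close to the 36.1% ± 0.533 held by the 9 cytosolic genes. The 11 genes of the endoplasmic reticulum (ER) held 12.1% in both libraries, and the 4 genes of vesicles and endosomes 7.25% in KO1 and 7.20% in KO2. The 7 mitochondrial genes held 8.56% in KO1 and 10.3% in KO2, a wider gap than in the other groups. By class, A held 23.8% ± 0.433 from 4 genes, B 13.9% ± 0.633 from 13 genes and C 62.3% ± 0.20 from 28 genes. Long genes weigh more when counts are not divided by length: in CPM the share of vesicle and endosome genes was 14.2% and that of the ribosome to translation group 25.3%.

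In the ER, 11 of 11 members were detected. Dnajb11, the lumenal cochaperone ERdj3, led with 83.7 TPM in KO1 and 79.0 TPM in KO2. Dnajc10, or ERdj5, a reductase that opens disulfide bonds of misfolded proteins, was next at 82.4 and 65.7 TPM, overlapping with Dnajb11. Dnajb9, or ERdj4, a target of the unfolded protein response, was at 42.0 and 31.0 TPM. Dnajc3, or P58IPK, which is induced by the same response, was at 26.7 and 20.5 TPM. The membrane proteins Dnajb12 and Dnajb14 take part in the degradation of ER proteins with their J domains facing the cytosol. Dnajb12 was at 12.1 TPM in KO1 and 17.4 TPM in KO2, and Dnajb14 was the lowest ER member at 2.74 and 2.18 TPM. Their TPM ratio was 4.40 in KO1 and 7.95 in KO2, so its size is uncertain although Dnajb12 was above Dnajb14 in both. The remaining ER members, Dnajc14, Dnajc18, Dnajc16, Dnajc25 and Dnajc1, had means from 21.9 TPM for Dnajc14 down to 3.45 TPM for Dnajc1. Opposite-strand exons cover 19.1% of Dnajc14, and with longest transcripts Dnajc1 was at 5.50 TPM.

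All 7 mitochondrial members were detected. Dnaja3, the class A protein of the matrix also called TID1, led at 92.2 TPM in KO1 and 95.1 TPM in KO2. Dnajc11, associated with the complex that shapes cristae, was at 36.3 and 45.7 TPM. Dnajc19 and Dnajc15 encode alternative J proteins of the motor that pulls precursors through the TIM23 channel. Dnajc19 was at 38.7 and 33.9 TPM and Dnajc15 at 20.2 and 17.1 TPM, a ratio of 1.92 in KO1 and 1.98 in KO2, and of 2.94 and 3.04 with longest transcripts. Dnajc30, linked to ATP synthase, was at 15.6 and 17.7 TPM, but exons of Bud23 on the opposite strand cover 26.2% of it. Dnajc4 was at 9.12 and 15.8 TPM, and Dnajc28 was the lowest at 2.74 and 2.60 TPM.

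At vesicles and endosomes, 4 of 4 members were detected. Dnajc13, the endosomal protein RME-8, was at 87.0 TPM in KO1 and 70.9 TPM in KO2. Dnajc5, the cysteine string protein known from synaptic vesicles, was at 56.7 and 53.5 TPM. Dnajc6, the auxilin that uncoats clathrin vesicles and is best known from neurons, was present at 20.9 and 18.3 TPM. Gak, the widely expressed auxilin whose symbol lies outside the family rule, was above it by a TPM ratio of 1.55 in KO1 and 1.93 in KO2. Dnajc27, a Rab-like protein, was at 17.3 and 15.9 TPM.

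The 8 members known mainly from testis, cilia or single tissues made up 1.35% ± 0.11 of the family's TPM (SD, n = 2), and 3 were detected. Dnajc22 had 575 and 567 counts, or 19.1 TPM in KO1 and 19.0 TPM in KO2, a level near the median of the family. Dnajb13, an axonemal protein of sperm and motile cilia, had 313 and 343 counts, or 7.04 and 7.80 TPM, and Ucp2 exons on the opposite strand cover 11.2% of its exons. Dnajc12, a cochaperone of aromatic amino acid hydroxylases, had 248 and 168 counts, or 3.40 and 2.33 TPM. Below the detection threshold, Dnajb3 had 30 and 28 counts. In KO1 this was 0.528 CPM, with a 95% exact Poisson interval from 0.356 to 0.754, and in KO2 it was 0.512 CPM, with an interval from 0.341 to 0.741. Dnajc5g had 13 counts in each library and Dnajc5b 1 count in each. Dnajb7 and Dnajb8 had 0 counts in both, and since a count of 0 allows up to 3 counts, the limit for each was 0.0528 CPM in KO1 against 0.0549 CPM in KO2. The wider two-sided Poisson interval used for Dnajb3 ends, for 0 counts, at 0.0649 and 0.0675 CPM. All such intervals and floors cover counting error only.

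Marker lists were read beside these genes. Of 8 male germ cell markers, 4 were detected (Ddx4, Dazl, Sycp3 and Ldhc), with a summed level of 201 TPM in KO1 and 141 TPM in KO2. The sperm genes Prm1, Prm2, Tnp1 and Acrv1 had 0 counts in both. Of 6 markers of ciliated cells, 5 were detected at a summed 24.0 and 26.7 TPM, led by Tekt1, while Foxj1, the regulator of motile cilia, had 52 and 94 counts and was not detected. The part of other cells in the reads of Dnajb13 was not tested.

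HSP70 partners were measured in the same libraries. Of 15 HSP70 genes, 13 were detected, led by Hspa8 at 2945 TPM in KO1 and 2725 TPM in KO2 and by Hspa9, the mitochondrial member, at 1364 and 1132 TPM. In the cytosol, the 9 general DNAJ genes summed to 31.0% of the Hspa8 TPM in KO1 and 28.9% in KO2. In the ER, 5 members with a J domain in the lumen (Dnajb9, Dnajb11, Dnajc1, Dnajc3 and Dnajc10) summed to 46.0% and 45.6% of Hspa5, the ER chaperone BiP. With Dnajc25, whose J domain is also placed in the lumen, the 6 summed to 47.4% and 47.0%. In mitochondria, Dnaja3, Dnajc15 and Dnajc19 summed to 11.1% and 12.9% of Hspa9. In all 3 compartments the HSP70 transcript was thus above the sum of the J partners counted. The order of the 3 percentages was the same in KO1 and KO2 but depends on which partners are counted. The cytosolic sum leaves out the ribosome to translation group, at 864 TPM in KO1 and 734 TPM in KO2. It also leaves out the vesicle and endosome group, at 182 and 159 TPM. The ER members Dnajb12, Dnajb14, Dnajc14, Dnajc16 and Dnajc18 are in neither the cytosolic nor the lumenal sum. J-domain genes without a Dnaj symbol were left out of all 3 sums. The percentages are proportions of transcripts and not of proteins.

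**Figure D3:**
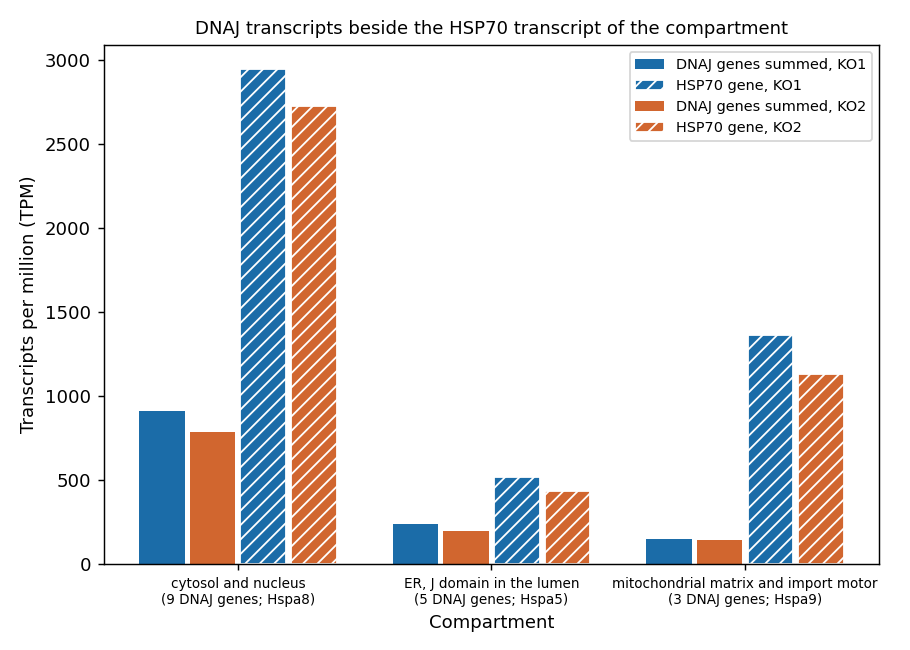
Summed TPM of the DNAJ genes counted for a compartment (plain bars) beside the TPM of the main HSP70 gene there (hatched bars), in each library. The cytosolic sum holds the 9 general folding genes only. For the genes counted, the HSP70 bar is the taller in each compartment in both libraries. Among these sums the gap is narrowest in the ER, at 46.0% and 45.6%.

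The other genes listed for the HSP70 cycle were detected in full. The 9 listed nucleotide exchange factors were led by Bag1 at 277 ± 27.4 TPM and the mitochondrial Grpel1 at 127 ± 2.52 TPM (SD, n = 2). Hspa4, Hsph1, Hyou1 and Hspa4l, whose products also act as exchange factors, were counted with the HSP70 genes instead. Hspa4 at 779 ± 97.6 TPM was above Bag1, and Hsph1 at 161 ± 13.8 TPM was above Grpel1. Hyou1 and Hspa4l were lower, at 71.6 ± 6.49 and 2.31 ± 0.419 TPM. The 4 J-domain genes without a Dnaj symbol were all detected. Of these, Hscb, of iron-sulfur cluster assembly, and Gak were the highest at 34.8 ± 1.54 and 33.9 ± 2.11 TPM. All 8 regulators of the heat-shock and ER stress responses were detected, led by Atf4 at 594 ± 27.3 TPM and Xbp1 at 116 ± 0.404 TPM. The heat-inducible HSP70 genes Hspa1a and Hspa1b had low counted levels, at 1.65 ± 0.60 and 3.46 ± 0.215 TPM, below Dnajb1 in both libraries. Sequence shared with other genes was examined for the DNAJ members only. Whether shared sequence lowered the counts of Hspa1a and Hspa1b was not tested, so their levels and the comparison with Dnajb1 are uncertain.

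A pair of classical stress motifs was looked for in RefSeq promoter windows of GRCm38.p6, 250 bases before to 50 after a start site, on both strands. These windows covered 37 of the 45 members, with 50 windows. The heat shock element, spelled GAANNTTCNNGAA or TTCNNGAANNTTC, was in 0.603% of all 32851 windows. Among the 50 member windows it was in 2, both of Dnajb6 and both holding the same match, so 1 of 37 members had it. The ER stress element, spelled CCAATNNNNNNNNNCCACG, was in 0.119% of all windows and in 1 of the 50 member windows, that of Dnajc3. Both matches are printed because they are the only matches to these spellings among the windows of the members, with the motif in capitals and 5 bases on either side.
Dnajb6, plus strand, chr5:29735847-29735869: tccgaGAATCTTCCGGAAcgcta
Dnajc3, plus strand, chr14:118937822-118937850: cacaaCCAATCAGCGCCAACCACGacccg
The Dnajb6 match ends 34 bases before one RefSeq start site and 115 before another, within an annotated GENCODE exon. The Dnajc3 match ends 87 bases before its start. A match is a run of letters and not a measured binding site, and these libraries hold no heat or ER stress treatment.

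The libraries were then compared member by member as the KO2 over KO1 ratio of scaled counts, with a 95% interval for counting error from the exact conditional binomial distribution. This compares 2 libraries of 1 group and no conditions. By the rule that the whole interval lies beyond 2-fold, with at least 50 counts in sum, 0 of 41 members differed, beside 1.06% of the 15608 genes that met the same minimum (0.98% higher and 0.0769% lower in KO2). At 1.5-fold the count was also 0, beside 6.4% of all genes higher and 0.205% lower in KO2. With a background this low, fewer than 1 of 41 genes is what the 2-fold rule gives on average, so a count of 0 says little about the family. The 4 members under 50 counts were Dnajc5g, Dnajc5b, Dnajb7 and Dnajb8.

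Smaller differences had a direction. The median log2 ratio of the 41 members was -0.15, against 0.01 for all genes, and 29 members were below 0. In 21 members the whole interval was below a ratio of 1 (31.2% of all genes) and in 8 it was above (34.4% of all genes). Dnaja2, Dnaja1, Dnajc2, Dnajc21, Dnajc13 and Dnajc10 were among those lower in KO2, with log2 ratios of -0.24, -0.22, -0.31, -0.23, -0.25 and -0.29. The highest ratio was that of Dnajc4, with 184 counts in KO1 and 315 in KO2, at 1.78-fold (95% interval 1.48 to 2.15). Dnajb12 and Dnajb5 followed at 1.48-fold (1.34 to 1.64) and 1.47-fold (1.35 to 1.60). The lowest was Dnajc12, at 0.705-fold (0.576 to 0.860).

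The GC content of the longest transcript moved with these ratios. Over the 41 members the Spearman correlation of log2 ratio and GC content was 0.836, and over 15603 genes it was 0.811. Genes of 1 pair of libraries share depth and preparation, so these are descriptions. Dnajc4, Dnajb5 and Dnajb12 have GC contents of 57.4%, 54.5% and 54.3%, and Dnajc19 and Dnajb9, at 40.3% and 40.6%, are at the other end. The median was 47.4% for the 41 members and 49.6% for all genes.

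Once the log2 ratio had been corrected for GC content with a loess curve, the median of the members was -0.01 and that of all genes also -0.01. Then 9 members had an interval below 1 and 8 above it, beside 21.4% and 19.2% of all genes, and 24 included it. By the 2-fold rule 0 members differed, beside 0.244% of all genes. Dnaja2 and Dnaja1, lower in KO2 before, were at 0.05 (0.02 to 0.08) and 0.10 (0.07 to 0.13). Dnajc21 turned likewise to 0.08 (0.04 to 0.11), and the interval of Dnajc2 included 0 at 0.0045 (-0.03 to 0.04). Dnajc13 and Dnajc10 stayed lower in KO2 at -0.07 (-0.10 to -0.04) and -0.09 (-0.14 to -0.03). Dnajc4 was at 0.25 (-0.01 to 0.53), and Dnajb12 and Dnajb5 remained above 0 at 0.24 (0.10 to 0.39) and 0.22 (0.11 to 0.34). Dnajb2 stood apart from its GC content, with a log2 ratio of 0.15 (-0.03 to 0.33) before and -0.42 (-0.60 to -0.24) after correction. Dnajb6 and Dnajc7 were both at -0.23 after correction. Dnajb1, with nearly equal levels in the libraries, was at 0.03 (-0.04 to 0.11) before and -0.17 (-0.25 to -0.10) after correction. The mitochondrial group, whose share differed most between libraries, had a median log2 ratio of 0.08 before correction and 0.12 after it, with 4 of 7 members above 0 before and 6 of 7 after. The median of all genes was 0.01 before and -0.01 after, and the group median was no nearer to 0 after correction. Only Dnajc11, at 0.17 (0.13 to 0.22), and Dnajc19, at 0.19 (0.11 to 0.27), had corrected intervals above 0. The intervals of Dnaja3 (-0.02 to 0.08), Dnajc15 (-0.06 to 0.12), Dnajc28 (-0.21 to 0.45) and Dnajc4 included 0. So did that of Dnajc30, at -0.12 (-0.31 to 0.08), so a shift of the whole group is not shown.

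**Figure D4:**
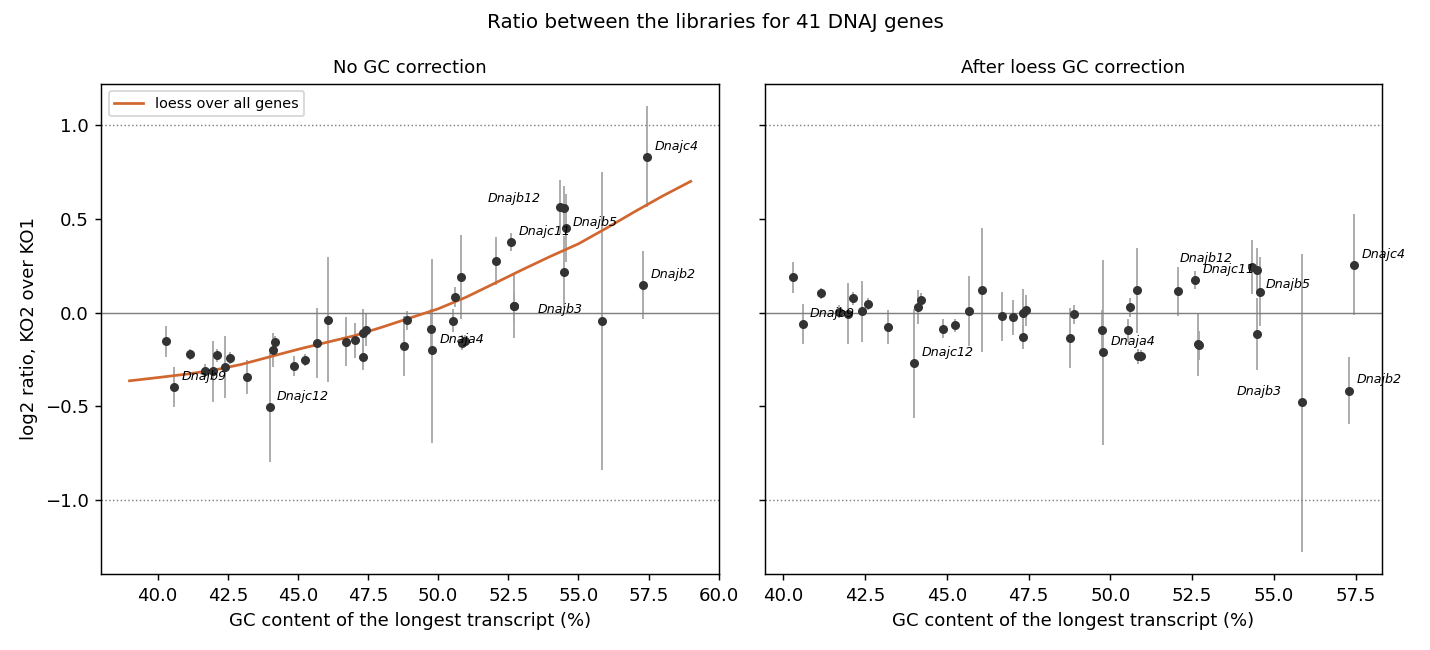
The log2 ratio of KO2 over KO1 for the 41 DNAJ genes with at least 50 counts, against GC content of the longest transcript in percent, before (left) and after (right) a loess correction. Points are genes, bars are 95% counting intervals, the orange line is the loess over all genes and dotted lines mark 2-fold; ratios tend to be higher at higher GC content on the left, where Dnajc4 is highest at 0.83, Dnajc12 lowest at -0.50 and Dnajb2 far under the line at 0.15, and their median is -0.01 on the right.

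The members are spread over 17 autosomes with none on X or Y, and 7 of them lie on chromosome 4, which also carries Ago1. Some members share sequence with other annotated genes, mostly processed pseudogenes, and the handling of such reads in the counting remains not given in the sources used here. Of all 50-base words in the longest Dnajb6 transcript, 35.8% occur in transcripts of other genes, and the share was 18.9% for Dnajc17 and 18.7% for Dnaja1. Counts at the pseudogene that shared most with each were small, with 4 and 3 at Gm2541 for Dnajb6, 61 and 52 at Gm6257 for Dnajc17, and 127 and 105 at Gm15542 for Dnaja1. These levels are therefore the less certain ones.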

How the data were processed

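The count table used is one that the authors deposited with unnormalized whole-number counts of reads per gene for 2 libraries. Its columns were matched to the titles KO1 and KO2 by their number alone. Per the submitters' processing notes the build was GRCm38, with aligner, counting program, strand setting and annotation not given in the sources used here. Of 55421 identifiers, 55240 were matched to GENCODE M21, from which symbols, exonic lengths and GC content were taken. Counts were scaled with edgeR 4.0.16 (TMM) in R 4.3.3 to CPM, and per exonic length to TPM. Values are mean ± SD over 2 libraries. Ratios used a prior count of 0.5, and the GC correction a loess of span 0.3 over genes with at least 50 counts. Other steps used python 3.11.15, scipy 1.17.1, pandas 2.3.3, bedtools 2.31.1 and, as an alternative, DESeq2 1.42.0 size factors. With 1 group no test between conditions was possible.

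Members, roles and lists were chosen with earlier results of these data known. The rule named the highest and lowest 2 members of each compartment, all class A genes, members with 0 counts, and the highest 2 of each partner list. Hspa1a, Hspa1b, Hspa5, the J-partner sums, relatives compared as ratios and all other genes named were chosen after their values were seen.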

Additional observations from a re-analysis of the deposited data

How the results depend on the processing

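No paired analysis was possible because both libraries belong to 1 group. Scaling by library size or DESeq2 size factors left the number of detected members at 40 and the median CPM within 1 SD. The DESeq2 factors were 1 for both libraries, because the median ratio fell among the 1698 of 24801 genes with equal counts, so they correct no depth. With them 12 of 41 log2 ratios left their main interval and the median was -0.21. Factors from genes with at least 50 counts, chosen after seeing the data, gave a median of -0.16 and moved none of the 41 outside its interval. Detection gave 41 members at 0.5 CPM, 36 at 5 CPM and 43 with any count. With longest transcripts the median TPM was 16.4, and 30 of 45 single levels moved by more than 1 SD, up to a ratio of 1.59. Shares with longest transcripts were 20.3% for class A, 65.3% for class C, 37.8% for the cytosol, 10.4% for the ER, 6.43% for vesicles and 1.10% for tissue-restricted genes. In CPM, not divided by length, they were 23.0% for class A, 13.3% for class B, 63.7% for class C, 37.5% for the cytosol, 11.8% for the ER, 14.2% for vesicles, 25.3% for the ribosome to translation group and 0.664% for tissue-restricted genes. The GC correction took the median log2 ratio to -0.0063. Values of either library alone always lie within 1 SD of the mean of 2 and cannot show stability. A 3-fold rule can only give 0 where 2-fold gives 0, and the looser count minimums, which also gave 0, add only genes of at most 13 counts a library, so neither bears on stability.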

Other observations

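The processed pseudogenes named after members, left out by the rule, had few reads, with 32 and 22 counts at Dnajc19-ps and 1 in each library at Dnaja1-ps. Among the partner lists, the largest ratio between libraries with at least 50 counts was that of Hspbp1, an exchange factor of HSP70, with 823 counts in KO1 and 1716 in KO2, a log2 ratio of 1.12. The GC content of its longest transcript is 59.9%, and after GC correction its log2 ratio was 0.36. After correction the largest was that of Ddit3, an ER stress regulator, with 184 and 310 counts and a log2 ratio of 0.81 before and 0.98 after. Both genes were chosen after their values were seen.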
